A study of Homo sapiens with 3 samples.

Results

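Carbonic anhydrase IX (CA9) and 9 other genes known to respond to low oxygen were followed in an osimertinib-sensitive lung cancer cell line and in both osimertinib-resistant lines selected from it. The genes were taken by symbol (CA9, CA12, VEGFA, ADM, SLC2A1, PDK1, BNIP3, EGLN3, NDRG1 and ANKRD37), with every probe that carried the symbol. They comprised 10 of the 43316 genes and 11 of the 58200 probes on the array, since VEGFA had 2 probes. The group was put together with results of these same arrays known, so its ratios to H1975 are given as a description without a test.

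H1975 is a human line of non-small cell lung cancer whose EGFR gene is mutated, and it is sensitive to osimertinib, an inhibitor of mutant EGFR. OR1 and OR2 are resistant lines that were selected independently from H1975, in separate flasks, by raising the dose of osimertinib in steps to 2 µmol/L over 4 months. The 3 lines shared the same serum-supplemented RPMI medium, and the labels name no low-oxygen treatment. Whether osimertinib was in the medium of OR1 and OR2 when RNA was taken is not stated in the methods of the study. Total RNA of each line was labeled with a single dye and hybridized to 1 Agilent array, and all 3 arrays lay on a single slide. The comparison asked which mRNAs differed between resistant and parental cells. There was therefore 1 array per line and no replicate, and a property of a single culture cannot be told apart from a property of the line.

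Cells sense oxygen through prolyl hydroxylases of the EGLN family, which use oxygen to mark the alpha subunits of the hypoxia-inducible factors (HIF) for capture by the VHL protein and for destruction. When oxygen is scarce, HIF1A or EPAS1 (HIF2A) persists, pairs with ARNT and binds short DNA motifs with the core ACGTG or GCGTG near its target genes. Many target genes are also under the control of growth factor and stress signaling, so their mRNA can change at normal oxygen. CA9 is among the targets most often used as a marker of hypoxia in lung and other solid tumors.

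RefSeq (GRCh38.p14) gave the 250 bases upstream of the transcription start for 7 of the 10 genes, and not for VEGFA, PDK1 and NDRG1. Both strands were searched for ACGTG and GCGTG. Of the 7 windows, 5 held at least 1 of the motifs, whereas 15172 of 35116 RefSeq promoters of the same length (43.2%) did so. ACGTG occurred in the windows of CA9, BNIP3 and ANKRD37 and in 18.5% of all promoters. GCGTG occurred in those of CA12, ADM and BNIP3 and in 32.2% of all promoters. The windows of SLC2A1 and EGLN3 held neither motif, and sequence outside the windows was not searched for any gene. Shown here are the windows of CA9, ADM and EGLN3, the genes with the highest ratios in OR1, and those of BNIP3 and ANKRD37, which held the most motif matches and whose ratios were below 1. Each runs 5′ to 3′ on the strand of the gene, with motif matches on either strand in capitals, and overlapping matches are run together.
CA9, chr9:35673678-35673927, plus strand: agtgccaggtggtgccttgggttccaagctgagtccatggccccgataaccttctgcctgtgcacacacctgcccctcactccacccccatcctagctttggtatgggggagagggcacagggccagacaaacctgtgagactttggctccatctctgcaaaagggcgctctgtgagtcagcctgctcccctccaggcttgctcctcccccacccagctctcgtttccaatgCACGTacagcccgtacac
ADM, chr11:10304823-10305072, plus strand: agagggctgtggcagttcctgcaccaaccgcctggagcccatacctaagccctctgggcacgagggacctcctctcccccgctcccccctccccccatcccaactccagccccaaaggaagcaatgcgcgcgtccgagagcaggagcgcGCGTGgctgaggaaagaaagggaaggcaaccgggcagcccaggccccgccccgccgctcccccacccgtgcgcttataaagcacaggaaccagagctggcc
EGLN3, chr14:33951075-33951324, minus strand: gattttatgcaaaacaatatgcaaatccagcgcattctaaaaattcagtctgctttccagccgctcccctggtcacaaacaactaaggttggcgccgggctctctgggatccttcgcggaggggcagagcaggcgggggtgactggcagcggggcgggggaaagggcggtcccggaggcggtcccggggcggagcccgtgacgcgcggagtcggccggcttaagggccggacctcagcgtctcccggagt
BNIP3, chr10:131981924-131982173, minus strand: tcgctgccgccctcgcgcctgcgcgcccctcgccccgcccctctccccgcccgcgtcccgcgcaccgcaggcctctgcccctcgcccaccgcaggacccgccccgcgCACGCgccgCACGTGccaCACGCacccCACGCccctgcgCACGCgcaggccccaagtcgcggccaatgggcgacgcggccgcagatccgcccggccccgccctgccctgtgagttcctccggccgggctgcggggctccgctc
ANKRD37, chr4:185396591-185396840, plus strand: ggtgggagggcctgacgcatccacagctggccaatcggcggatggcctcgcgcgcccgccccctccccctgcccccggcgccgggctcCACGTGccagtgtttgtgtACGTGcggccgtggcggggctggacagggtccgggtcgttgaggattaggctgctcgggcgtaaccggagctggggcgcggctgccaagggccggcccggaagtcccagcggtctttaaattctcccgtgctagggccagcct
The match in CA9 lay on the reverse strand from base -18 to -14 before the start. That of ADM lay from -101 to -97. BNIP3 held 6 matches between -143 and -100, and ANKRD37 held 3 between -162 and -139. Both windows contain CACGTG, which reads the same on either strand and was counted once per strand. A match of this kind is a string of letters and was not a measure of HIF binding.

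The CA9 value rested on 1 probe and 1 spot per array, and VEGFA on 2 probes that did not give the same ratio, so the sequences of the probes that cross an intron are shown. All 60 bases of each probe are lower case because no motif was marked.
CA9 probe, chr9:35677817-35679204 (hg19), plus strand: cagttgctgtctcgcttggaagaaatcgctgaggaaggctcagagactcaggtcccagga
VEGFA brighter probe, chr6:43746223-43746634 (hg19), plus strand: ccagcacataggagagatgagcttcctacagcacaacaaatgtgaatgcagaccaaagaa
The CA9 probe (NM_001216) extends over 1388 bases of genome, and the brighter VEGFA probe (NM_001025370) over 412 bases, so each joins exon sequence across at least 1 intron. The second VEGFA probe (NM_001025366) lies without a gap on chromosome 6 from 43753511 to 43753570.

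Values in the following are intensities, the brightness of a spot after the scanner software subtracted background. Ratios were taken after each array was divided by its own 75th percentile, equal to 157 for H1975, 138 for OR1 and 162 for OR2. The scanner software could call a spot well above background from 12.6 upward in H1975 and OR2 and from 11.4 upward in OR1, and all 11 probes were so called on all 3 arrays. No spot of these probes was saturated or marked as an outlier. The error given with a ratio is a technical SD on the log2 scale, from the scanner software's own error estimate for both spots. It covers the measurement of 1 hybridization and neither a second culture nor a second array. Following the methods of the study, a ratio of at least 2 or at most 0.5 was counted as a change. An array of a whole culture cannot tell fewer expressing cells from less RNA per cell. Intensities of different probes are not comparable with each other, and only the same probe is compared between lines.

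**Figure D1:**
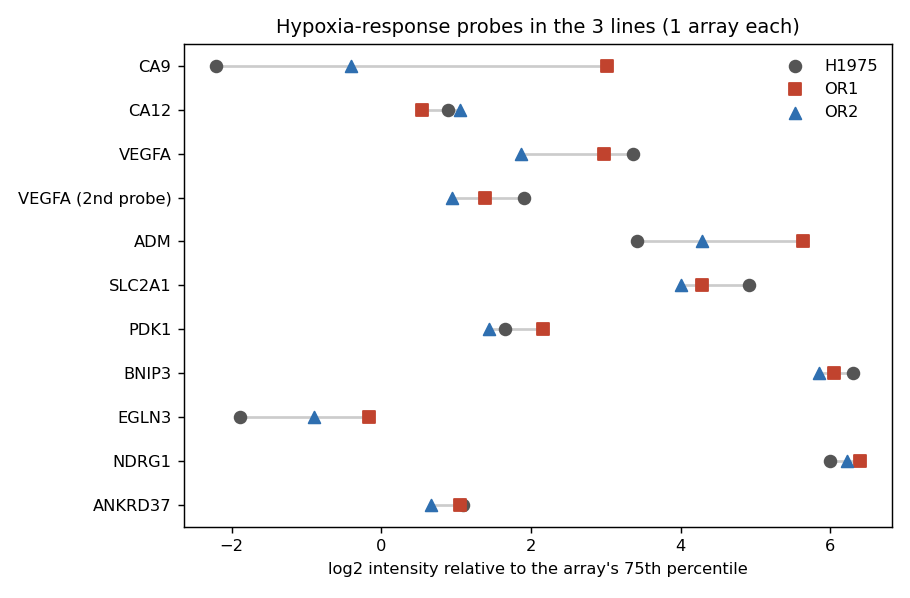
Log2 intensity of each probe relative to the 75th percentile of its array (x axis) in H1975 (circles), OR1 (squares) and OR2 (triangles), with 1 array per line and a grey line from lowest to highest. The 3 symbols lie far apart for CA9, clearly apart for ADM and EGLN3, and close together for NDRG1, BNIP3 and CA12.

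Among the 10 genes, CA9 differed most between the lines. CA9 encodes a membrane enzyme that converts carbon dioxide and water to bicarbonate and a proton at the outer cell surface. H1975 had an intensity of 34.1, OR1 of 1111 and OR2 of 122. The gene was dim in the parental line, brightest in OR1, and lay between these in OR2. The ratio to H1975 was 37.2 in OR1 (technical SD 0.23 on the log2 scale) and 3.49 in OR2 (technical SD 0.24). OR1 carried 10.66 times the CA9 signal of OR2 (technical SD 0.21). Of 18589 genes that were well above background on all arrays, 3 had a higher ratio than CA9 in OR1 and 316 did in OR2. Between the resistant lines, a single gene exceeded the CA9 ratio of OR1 to OR2. The size depended on the processing. With the normexp background correction, which adds an offset of 50 to each signal, OR1 stood at 13.98 and OR2 at 1.91, the latter below 2, and scaling on spike-in probes gave 24.5 in OR1.

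CA12, another membrane carbonic anhydrase with its active site outside the cell, did not follow CA9. The probe (NM_001218) read 293 for H1975, 201 for OR1 and 335 for OR2. OR1 was the lowest and OR2 the highest, and all 3 lay within a narrow range. The ratio to H1975 was 0.782 in OR1 (technical SD 0.21) and 1.11 in OR2 (technical SD 0.20), and the OR2 value differed from 1 by less than its technical SD.

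Of the secreted products, ADM was higher and VEGFA lower in the resistant lines. ADM encodes the precursor of adrenomedullin, a peptide that widens blood vessels. It was the one gene of the group spotted 10 times on each array. The spots of ADM ranged from 1554 to 1795 in H1975 (median 1698), from 6476 to 7180 in OR1 (median 6894) and from 3013 to 3373 in OR2 (median 3168). No spot of any line overlapped with those of another, and the SD between spots on the log2 scale was 0.07 for H1975, 0.04 for OR1 and 0.05 for OR2. These spots shared 1 RNA sample per line and were averaged. Averaged, ADM had an intensity of 1686 for H1975, 6872 for OR1 and 3156 for OR2 (NM_001124, chromosome 11 from 10328780 to 10328839 on hg19). The ratio to H1975 was 4.65 in OR1 and 1.82 in OR2, each with a technical SD of 0.20.

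VEGFA encodes the main growth factor for blood vessels. The brighter VEGFA probe read 1615 for H1975, 1083 for OR1 and 590.3 for OR2. H1975 was the highest and OR2 the lowest. Relative to H1975, OR1 stood at 0.765 and OR2 at 0.356, each with a technical SD of 0.20. On the second probe H1975 read 589.9, OR1 359 and OR2 312, and the order of the lines was the same. On that probe the ratio was 0.694 for OR1 and 0.516 for OR2, so that OR2 passed 0.5 on one VEGFA probe and not on the other. The probes are assigned to different RefSeq transcripts of VEGFA, and a difference in transcript use was not tested.

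The genes of glucose and pyruvate handling showed smaller differences. SLC2A1 encodes the glucose transporter GLUT1, and it read 4764 for H1975, 2692 for OR1 and 2596 for OR2 (NM_006516). Both resistant lines were below H1975, with 0.644 of its level for OR1 and 0.530 for OR2 (technical SD 0.20 each), and neither passed 0.5. With spike-in scaling the OR1 ratio was 0.425. PDK1 encodes a kinase that switches off pyruvate dehydrogenase and so keeps pyruvate out of the mitochondria. For PDK1 (NM_002610), H1975 read 494, OR1 616 and OR2 439.99. OR1 thus stood at a ratio of 1.42 and OR2 at 0.867 (technical SD 0.20 each), and with spike-in scaling the OR1 value moved to the other side of 1, at 0.939.

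BNIP3, a protein of the outer mitochondrial membrane that marks mitochondria for removal, was bright in every line. Intensities of 12464 for H1975, 9107 for OR1 and 9293 for OR2 were read (NM_004052). The resistant lines lay slightly below H1975, with 0.833 of its level for OR1 and 0.726 for OR2 (technical SD 0.20 each).

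EGLN3, an oxygen-dependent prolyl hydroxylase that is both a regulator and a target of HIF, ranked next to ADM. EGLN3 read 42.4 for H1975, 123 for OR1 and 86.9 for OR2 (NM_022073, chromosome 14 from 34393422 to 34393481 on hg19). The order of the lines was that of CA9 and ADM, with H1975 lowest and OR1 highest. OR1 reached 3.31 times and OR2 1.99 times the H1975 value (technical SD 0.23 each). The OR2 value lay just under the ratio of 2, closer than any other member of the group, and the nearest member past it in OR2 was CA9 at 3.49. With normexp OR1 stood at 1.99 and OR2 at 1.40, and scaling on probes well above background gave 2.10 in OR2.

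NDRG1, a stress-responsive protein linked to differentiation and growth arrest, read 10036 for H1975, 11652 for OR1 and 12051 for OR2 (NM_006096). Both resistant lines were slightly above H1975, at 1.32 in OR1 and 1.17 in OR2 (technical SD 0.20 each), although spike-in scaling placed OR1 at 0.873. ANKRD37, an ankyrin-repeat protein known as a HIF target, read 334 for H1975, 286 for OR1 and 256 for OR2 (NM_181726). Its ratio to the parental line was 0.976 for OR1 and 0.745 for OR2 (technical SD 0.20 each). The OR1 value of ANKRD37 differed from 1 by less than its technical SD, and scaling on probes well above background put it at 1.01.

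**Figure D2:**
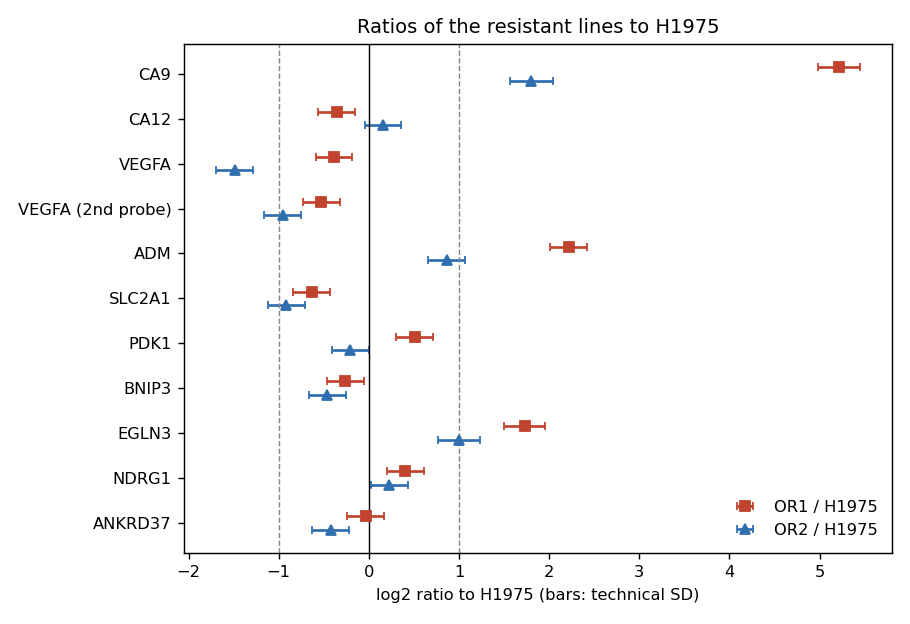
Log2 ratio of OR1 (squares) and OR2 (triangles) to H1975 for each probe (x axis), with bars of 1 technical SD from the scanner error estimate and dashed lines at ratios of 0.5 and 2 (-1 and 1 on the log2 scale). CA9, ADM and EGLN3 lie beyond the right dashed line in OR1, and in OR2 CA9 lies beyond it and VEGFA beyond the left one.

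The members of the group did not share a direction. In OR1, 3 of the 10 genes (CA9, ADM and EGLN3) had a ratio of at least 2, beside 9.17% of 21868 genes measured, and 0 had a ratio of at most 0.5, beside 9.58%. In OR2, CA9 alone reached 2, beside 7.72% of 21688 genes, and VEGFA alone was at most 0.5, beside 8.7%. CA9 was also the 1 member past 2 in both lines, beside 5.09% of 22417 genes, and 0 members were at most 0.5 in both, beside 6.32%. The choice of the genes used these ratios, and nothing is read from the counts. Of the 10 ratios, 5 were above 1 and 5 below in each line, and with spike-in scaling 3 were above 1 in OR1. The median ratio of the group was 1.14 in OR1 and 0.983 in OR2, and that of all 18589 genes was 1.02 and 0.964. Values from the 5th to the 95th percentile of all genes ran from -1.28 to 1.22 in OR1 and from -1.15 to 1.15 in OR2 on the log2 scale. CA9, ADM and EGLN3 lay above that range in OR1, CA9 lay above it in OR2, and VEGFA lay below it in OR2.

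**Figure D3:**
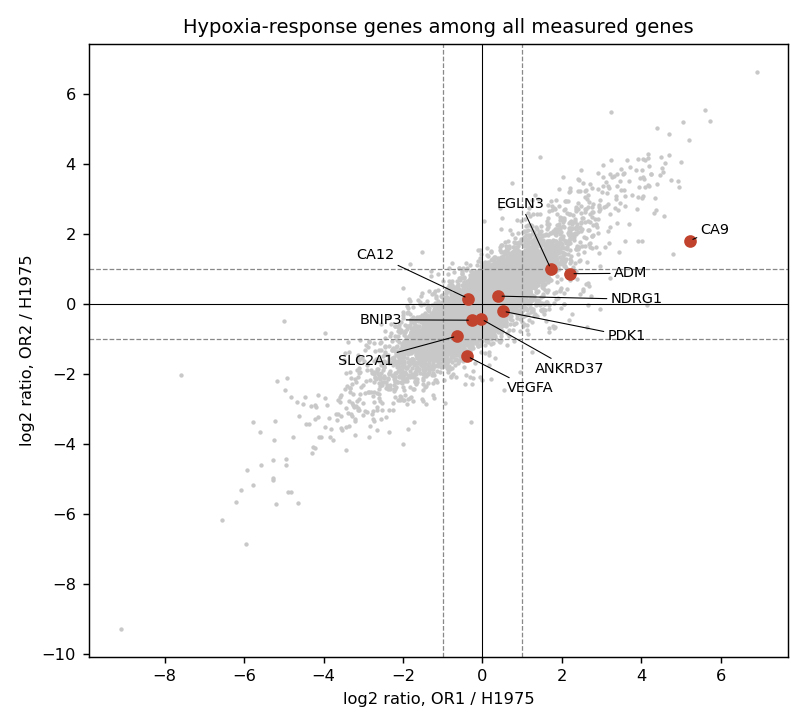
Log2 ratio of OR1 to H1975 (x axis) against log2 ratio of OR2 to H1975 (y axis) for 18589 genes well above background on all arrays (grey) and the 10 hypoxia-response genes (red), with dashed lines at ratios of 0.5 and 2. CA9 lies far to the right at 5.22 and 1.80, and 6 of the other 9 genes lie within the dashed lines on both axes. The axes share the H1975 array, so their ratios are not independent.

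The ratio of OR1 to OR2 does not use the H1975 array. It was at least 2 for CA9, ADM (2.55) and VEGFA (2.15), beside 2.89% of 21451 genes, and at most 0.5 for 0 members, beside 2.48%. For VEGFA this held on the brighter probe alone, since the second gave 1.35, the median over both probes 1.70 and the brighter probe without scaling 1.83. The values of the other genes lay between 0.701 for CA12 and 1.66 for EGLN3. Of the 10 genes, 9 were higher in OR1 than in OR2, with a median ratio of 1.47 beside 1.05 over all genes. The share of all genes that were higher in OR1 is not given here, and nothing is read from the count. The count also depended on the scaling of the arrays. Without scaling 7 of the 10 were higher in OR1, and 5 were with spike-in scaling, which shifted OR1 as a whole by -0.60 in log2 ratio. ADM was then at 1.604 and VEGFA at 1.35, while CA9 remained at 6.70, and CA12 was at 0.441, so that 1 member was then at most 0.5.

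Genes with the profile nearest to CA9 over the 3 arrays were sought among 18588 genes with the same detection calls, by the distance between log2 intensities after each gene's mean was subtracted. ACTG2, a smooth muscle actin, was nearest at a distance of 0.321, at 27.9 times H1975 for OR1 and 2.71 times for OR2. BMP5, a secreted signaling protein, followed at 0.965 with 23.7 and 5.74. CNN1, the smooth muscle protein calponin, was at 0.973 with 16.3 and 3.51. KRBOX1 (named KRABD1 in RefSeq) was at 1.07 with 15.03 and 3.51, and LIMCH1, an actomyosin regulator, at 1.20 with 19.8 and 6.06. None of the 5 belongs to the other lists of hypoxia genes described here, and the order rests on 3 values per gene.

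The genes next to CA9 on chromosome 9 did not reach its ratio in OR1, whereas the highest of them exceeded it in OR2. Among the 20 measured genes whose probes lay nearest on hg19, all within 492244 bases, the median log2 ratio was 0.01 in OR1 and -0.22 in OR2. The highest ratio among these 20 genes was 5.94 in OR1 and 3.80 in OR2, beside 37.2 and 3.49 for CA9. Of the 20 genes, 3 in OR1 and 2 in OR2 reached 2, beside 9.17% and 7.72% of all genes measured. Around ADM the median log2 ratio of 20 genes was 0.43 in OR1 and 0.34 in OR2, and around EGLN3 it was 0.06 and 0.05. Copy number was not measured.

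Of the machinery that controls HIF, all 18 listed subunits and regulators were detected well above background in at least 1 line. For HIF3A this held on the brightest of its 3 probes, and the others were not well above background on any array. HIF1A, the oxygen-regulated subunit, read 2590.5 for H1975, 1244 for OR1 and 1613 for OR2, at a ratio of 0.548 and 0.606, and without scaling or with spike-in scaling the OR1 ratio was below 0.5. A second HIF1A probe gave 0.572 and 0.680. Its relative EPAS1 was at 6789.8, 8342 and 9201, at ratios of 1.40 for OR1 and 1.32 for OR2, although spike-in scaling placed OR1 at 0.924. ARNT, the shared partner, was dim at 76.4, 48.8 and 82.7, at ratios of 0.729 for OR1 and 1.05 for OR2. VHL was at 1.28 in OR1 and 1.23 in OR2, EGLN2 at 1.19 and 1.07, and HIF1AN, which blocks the activating domain of HIF, at 1.26 and 1.49. These OR1 ratios were below 1 with spike-in scaling, at 0.842 for VHL, 0.784 for EGLN2 and 0.829 for HIF1AN. EGLN1, the main oxygen sensor of the family, was at 0.705 in OR1 and 0.603 in OR2. With spike-in scaling EGLN1 was at 0.465 and ARNT at 0.481 in OR1, both below 0.5. Arrays measure mRNA, and HIF is controlled chiefly as a protein.

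Among the remaining regulators, CITED2 reached 2 in both lines, beside 5.09% of all genes. ARNT2 and TCEB1 were at most 0.5 in both, beside 6.32%. CITED2, a target and inhibitor of HIF that competes for its coactivators, read 1350.3 for H1975, 2979 for OR1 and 4273 for OR2. Its ratio was 2.52 for OR1 and 3.08 for OR2, a dimmer probe gave 1.97 and 2.13, and spike-in scaling gave 1.66 in OR1. TCEB1, which encodes the Elongin C subunit of the VHL complex, was at 0.444 in OR1 and 0.400 in OR2. ARNT2 was at 0.253 and 0.350. A second ARNT2 probe near background gave at least 1.32 in OR2 and no ratio in OR1, so the ARNT2 probes disagree.

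Other carbonic anhydrases and pH regulators differed in both directions. Of 17 genes in this list, 11 were detected well above background in at least 1 line. Of these, 2 were at least 2 in both lines, beside 5.09% of all genes, and 2 were at most 0.5 in both, beside 6.32%. CA13, a cytosolic form, read 53.4 for H1975, 214 for OR1 and 249 for OR2, and both resistant lines were about alike at a ratio of 4.57 and 4.53. CA11, which lacks enzyme activity, was at 2.04 in OR1 and 3.65 in OR2, and its OR1 value was below 2 under 4 of the alternatives, to 1.35 with spike-in scaling. CA2, the abundant cytosolic form of many tissues, had an intensity of 211 in H1975 and was not well above background in OR1 or OR2. This bounds its ratio at or below 0.0615 for OR1 and 0.0581 for OR2. CA14, a membrane form, read 229 for H1975, 25.96 for OR1 and 28.1 for OR2, at a ratio of 0.129 and 0.119. CA9 was thus higher on the same arrays on which its relatives CA2 and CA14 were lower.

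The NDRG, PDK and BNIP3 relatives were similarly mixed. NDRG2 had ratios of 2.93 for OR1 and 1.47 for OR2, NDRG3 of 1.34 and 1.85, and NDRG4 of 0.999 and 1.61, although spike-in scaling placed NDRG2 at 1.93 and NDRG3 at 0.885 in OR1. On a second probe NDRG2 was at 3.81 and 2.27. PDK2 was at 1.78 in OR1 and 2.07 in OR2 on the brighter probe, with 1.98 in OR2 under normexp, and at 2.61 and 2.52 on the other, past 2 in both lines. PDK4 was at 0.584 and 1.59. PDK3 was at 0.784 and 0.938 on the brighter probe and at 0.402 and 0.444 on the other. BNIP3L was at 0.971 in OR1 and 0.929 in OR2, while another of its probes gave 1.40 and 1.37.

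Of 24 further genes for glucose uptake and glycolysis, all were measured, and 0 were at least 2 or at most 0.5 in both lines. Over all genes, 5.09% were at least 2 and 6.32% at most 0.5 in both. The median log2 ratio of the glycolysis list was 0.17 in OR1 and -0.13 in OR2. In the list for pyruvate, mitochondria and mitophagy, 8 of 10 genes were measured and likewise 0 passed in both lines.

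Among secreted and vascular factors, 9 of 15 were measured. EDN1, the precursor of the vessel-narrowing peptide endothelin, read 159 for H1975, 452 for OR1 and 349 for OR2. EDN1 thus stood at a ratio of 3.24 for OR1 and 2.14 for OR2, a second probe gave 3.45 and 2.30, and normexp gave 1.83 in OR2. VEGFC, VEGFD, ANGPT1, ANGPT2, EPO and LEP were not well above background on any array.

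Receptors for VEGFA and adrenomedullin were largely undetected. KDR, FLT1, CALCRL, RAMP2 and RAMP3 were not well above background in any of the 3 lines, so the core receptors of both ligands were below this limit in the cells that carried VEGFA and ADM mRNA. RAMP1, a partner of calcitonin-family receptors, was bright at 28376 in H1975, 28735 in OR1 and 36540 in OR2. NRP2, a coreceptor of the VEGF family, was at 0.424 in OR1 and 0.433 in OR2, and at 0.579 and 0.578 with normexp.

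The lists for matrix enzymes and for transcription, chromatin and stress held lower genes. P4HA2, a collagen prolyl hydroxylase, read 5995 for H1975, 1895 for OR1 and 1879.5 for OR2. Its ratio was 0.361 for OR1 and 0.305 for OR2, and 2 further probes lay between 0.312 and 0.373. HMOX1, the heme-degrading oxygenase, read 22102 for H1975, 2881 for OR1 and 2735 for OR2, at a ratio of 0.149 and 0.120. BHLHE40, a repressor of the circadian and hypoxic programs, was at 0.319 and 0.289. HILPDA, a lipid droplet protein that is a standard HIF target, was at 0.408 and 0.341. SLC6A8, the creatine transporter, was at 0.342 and 0.467, and at 0.544 and 0.744 on a second probe. In the list for transcription, chromatin and stress, 22 of 25 genes were measured. Of these, 5 were at most 0.5 in both lines, beside 6.32% of all genes, and 0 were at least 2, beside 5.09%.

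Over the 8 lists together, 103 of 125 genes were detected well above background in at least 1 line. Of these, 4 (3.88%) had a ratio of at least 2 in both lines, beside 5.09% of all genes, and 12 (11.7%) were at most 0.5 in both, beside 6.32%. The other 87 genes did neither. Over all 103 genes, the 4 and the 12 included, the median log2 ratio was -0.09 in OR1 and -0.17 in OR2, beside 0.03 and -0.05 over all 18589 genes. Ratios below 1 were found for 58 genes in OR1 and 66 in OR2, and ratios above 1 for 44 and 37. The share of all genes below 1 is not given here, and nothing is read from these counts. The lists were drawn up with results of these arrays known, and no test was made. In a separate list of 14 ATF4 and unfolded protein response genes, all were measured, 0 were at least 2 and 2 were at most 0.5 in both lines, namely VLDLR at 0.1002 and 0.113 and the serine synthesis enzyme PHGDH at 0.393 and 0.309.

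**Figure D4:**
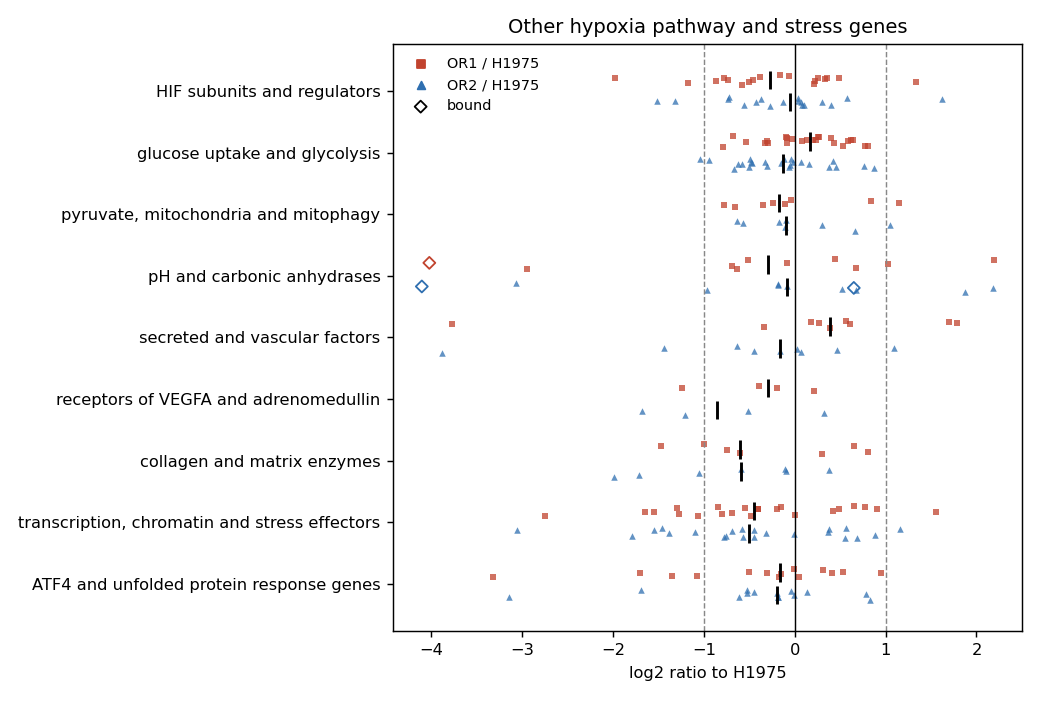
Log2 ratio to H1975 (x axis) of each gene in the 8 lists of HIF pathway genes and in the list of ATF4 and unfolded protein response genes, for OR1 (squares) and OR2 (triangles), with open diamonds for bounds, black bars at the list medians and dashed lines at ratios of 0.5 and 2. Most points lie within the dashed lines, and the list of transcription, chromatin and stress effectors has medians of -0.44 in OR1 and -0.51 in OR2.

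The labels call the cells a non-small cell lung cancer line, and epithelial markers were present in all of them. All 6 epithelial markers were well above background on each array, but 4 of the 6 were at most 0.5 in both resistant lines, beside 6.32% of all genes. EPCAM read 18987 for H1975, 616 for OR1 and 1415 for OR2, and CDH1 (E-cadherin) was at 5644, 101 and 464. The summed intensity of the epithelial list was 390544 for H1975, 147897 for OR1 and 172181 for OR2. Lung lineage genes and markers of other cells were uneven between the lines. NKX2-1 was at 832, 184 and 1167, NAPSA at 37.2, 25.1 and 59.8, and SFTPC at 24.02, 79.6 and 120.3, whereas SFTPB was not well above background in any line. Summed leukocyte markers were at 288, 1009 and 1803, where CD14 gave most of the signal and CD3E was not above background. Summed endothelial markers were at 89.0, 97.9 and 104, and summed fibroblast markers at 666, 679 and 98.2, with DCN not above background in any line. Such sums add probes whose brightness is not on a shared scale, and the fibroblast markers differed among themselves. COL1A1 stood at 1.45 times H1975 for OR1 and 0.183 times for OR2, COL1A2 stood at 0.162 for OR1 and no higher than 0.0615 for OR2, and LUM was well above background in OR1 alone, at least 5.43 times H1975. The part of these differences in the CA9, ADM and EGLN3 values was not tested.

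**Figure D5:**
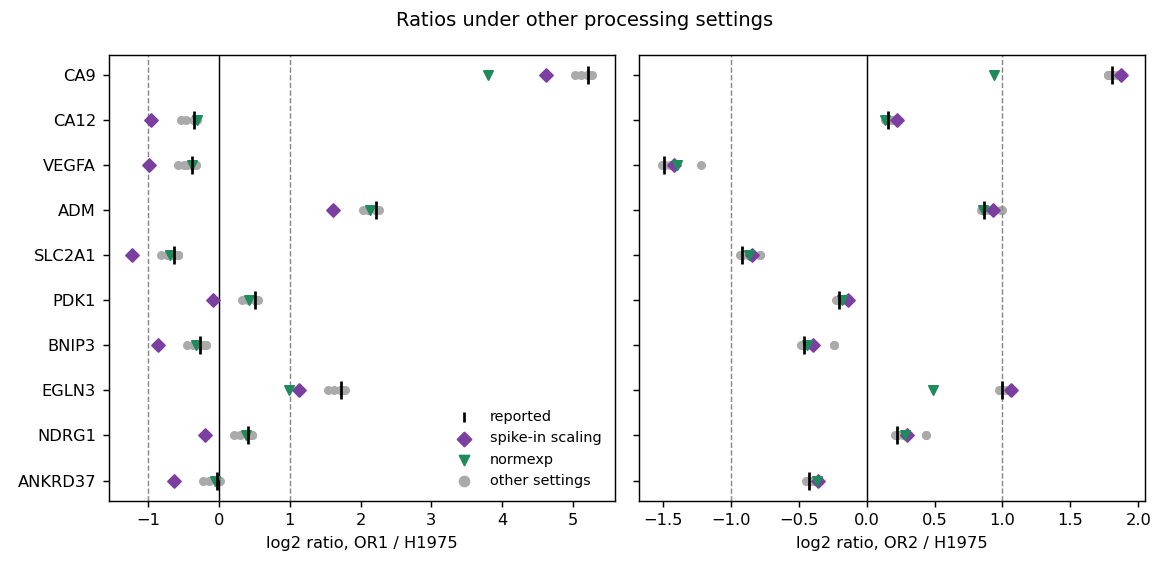
Log2 ratio to H1975 (x axis) of the 10 genes in OR1 (left) and OR2 (right) as reported (black bars) and after other processing, with spike-in scaling (diamonds), normexp background correction (triangles) and the remaining settings (grey circles), and dashed lines at ratios of 0.5 and 2. Spike-in scaling lies left of the reported value for every gene in OR1, and normexp lies left of it for CA9 and EGLN3 in both lines.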

How the data were processed

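Total RNA of H1975, OR1 and OR2 was labeled with Cy3 and measured on 1 Agilent array per line. The authors deposited scanner output of Agilent Feature Extraction (version 9.5.1.1 per the labels, 10.7.1.1 per the file headers), from which the background-subtracted intensity of each spot was used, and a table of normalized intensity values with 1 value per probe, whose method is not given in the sources used here and which served as an alternative. Control spots and spots marked as outliers were left out, repeated spots were averaged as log2 values, and the 75th percentile of each array was subtracted. The probe with the highest mean stood for a gene. A gene had to be well above background on at least 1 array, and on the other side of the ratio the higher of its own value and the lowest intensity called well above background gave a bound. With 1 array per line no test was possible, and ratios of 2 and 0.5 were used. All arrays shared a slide and a scan. The counting was tested on simulated data.

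The members, lists, named genes and alternatives were chosen with earlier results of these data known. Named from the lists were genes past the ratio in both lines, at most 4 per list, besides fixed HIF regulators and relatives of the members, and the values of 1 such gene are not reported here. Accessions were matched to RefSeq for symbols, for all 11 probes of the members, and promoters came from RefSeq (GRCh38.p14). Probe positions are on hg19, as deposited, and their place in exons or untranslated regions was not analysed here. Alternatives covered scaling, background correction, probe choice, filters and ratio thresholds. Python 3.11.15, numpy 2.4.6, pandas 2.3.3, R 4.3.3 and limma 3.58.1 were used.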

Additional observations from a re-analysis of the deposited data

Results flagged for a closer look

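Among the 10 hypoxia-response genes and the HIF regulators, paralogs and list genes given by name, 5 had a ratio to H1975 above 1 in one resistant line and below 1 in the other. Unnamed genes of the lists and the cell type markers were not considered. The share of all genes with opposite directions is not given here, and nothing is read from the count. With 1 array per line the difference between OR1 and OR2 was not tested. CA12 was at 0.782 in OR1 and 1.11 in OR2, so that OR1 carried 0.701 of the OR2 level, and the OR2 value differed from 1 by less than its technical SD of 0.20. PDK1 was at 1.42 and 0.867, at a ratio of OR1 to OR2 of 1.64. With spike-in scaling the OR1 value of PDK1 was 0.939, so that both lines were then below 1. ARNT was at 0.729 and 1.05, at a ratio of OR1 to OR2 of 0.692, and its OR2 value differed from 1 by less than the technical SD of 0.22. NDRG4 was at 0.999 and 1.61, at a ratio of OR1 to OR2 of 0.619, and its OR1 value differed from 1 by less than the technical SD of 0.20. The OR1 value of NDRG4 was above 1 under 3 of the alternatives. PDK4, a kinase of pyruvate dehydrogenase that responds to fasting, was at 0.584 and 1.59, at a ratio of OR1 to OR2 of 0.368, the widest gap of the 5.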

How the results depend on the processing

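Of 1184 values recomputed under the alternatives, 1045 stayed within their spread or count range and 139 moved. Of the ratios reported as at least 2 or at most 0.5, 0 moved to the other side of 1. Apart from the CA9 ratios and the counts of members and of HIF pathway genes, there were 1047 values. Of these, 110 moved, 51 of them with spike-in scaling and 25 with normexp. Spike-in scaling rests on 7 of 10 spike-in probes and lowered the median log2 ratio of all genes by 0.60 in OR1, against 0.19 without scaling and 0.11 with median scaling.

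The CA9 ratio in OR1 was 24.5 with spike-in scaling and 13.98 with normexp, and in OR2 it was 1.91 with normexp. The CA9 ratio of OR1 to OR2 was 9.09 without scaling, 6.70 with spike-in scaling and 7.30 with normexp. With the percentile over probes well above background, without scaling and with spike-in scaling, 2 members in place of 1 reached 2 in OR2 and in both lines, the second being EGLN3. With normexp 0 did, with a ratio of 4 also 0, and with a ratio of 1.5 there were 3. Members at the lower threshold in OR1 numbered 1 with spike-in scaling and 1 with a ratio of 1.5 (main count 0), those in OR2 0 with a ratio of 4 and 2 with a ratio of 1.5, and those in both lines 1 with a ratio of 1.5. HIF pathway genes at the upper threshold in both lines, 4 as reported, numbered 2 with spike-in scaling, 2 with normexp, 1 with a ratio of 4 and 9 with a ratio of 1.5. Those at the lower threshold, 12 as reported, numbered 4 with a ratio of 4 and 21 with a ratio of 1.5. The shares of all genes under these settings are not given here, and nothing is read from these counts about the members or lists. The cause of the moves under other scaling or background correction was not tested.

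No paired analysis was possible because each line had a single array. Dim probes limit what can be said: CA9 and EGLN3 in H1975 lay at 34.1 and 42.4, against a limit of 12.6.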
